A study of Mus musculus with 12 samples.

Results

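The 10 genes described here are transcription factors of the trophectoderm, the outer epithelium of the mouse blastocyst: Tead4, Cdx2, Gata3, Tfap2a, Tfap2c, Eomes, Elf5, Ets2, Gata2 and Hand1. They were listed by name as known regulators of this tissue. The blastocyst table lists all 10 of them among 45706 genes, and the embryonic stem (ES) cell table lists 6 of them among 13009 genes. The study asked how loss of Dis3l, which encodes a nuclease of the cytoplasmic RNA exosome, changes RNA levels in mouse embryos and in ES cells. Its 12 samples fall into 4 groups of 3: Dis3L KO blastocysts, Dis3L WT blastocysts, Dis3L KO ES cells and Dis3L WT ES cells. Blastocysts were collected 96 h after females received hCG, and each library was made from a single embryo by Tn5 tagmentation with 15 PCR cycles. The ES cell lines were derived from blastocyst outgrowths on inactivated mouse fibroblasts and grown with 500 IU/ml LIF, and lysed cells gave stranded libraries depleted of ribosomal RNA. The strain, the Dis3L allele, the sex and litter of the embryos, and the number of independent ES cell lines are not given in the sources used here, so p-values measure only the spread between these samples.

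The trophectoderm is set apart from the inner cell mass when outer cells become polar and Hippo signalling falls silent in them. YAP then stays in the nucleus and binds TEAD4, and this complex, together with Notch signalling, turns on Cdx2 and Gata3. Eomes, Elf5, Ets2 and the AP-2 factor Tfap2c then act with Cdx2 to keep trophoblast stem cells dividing, while Gata2, Gata3 and Hand1 act as trophoblast differentiates towards giant cells and the placenta. In ES cells, which derive from the inner cell mass, the Cdx2 programme is held down by Oct4, the product of Pou5f1.

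RefSeq promoter windows (GRCm38.p6, 250 bases before to 50 bases after a transcript start) were at hand for 7 of the 10 genes, in 10 windows; Tead4, Tfap2c and Hand1 were not matched. The 3 windows below are shown because they hold the letters of the AP-2 motif, which Tfap2a and Tfap2c bind, and because Gata3 and Cdx2 were the members with the highest transcript levels per length in blastocysts. Capitals mark each match to GCCNNNGGC, which reads alike on both strands. No TEAD match, searched for as below, overlapped an AP-2 match.
Gata3, chr2:9878551-9878850, minus strand: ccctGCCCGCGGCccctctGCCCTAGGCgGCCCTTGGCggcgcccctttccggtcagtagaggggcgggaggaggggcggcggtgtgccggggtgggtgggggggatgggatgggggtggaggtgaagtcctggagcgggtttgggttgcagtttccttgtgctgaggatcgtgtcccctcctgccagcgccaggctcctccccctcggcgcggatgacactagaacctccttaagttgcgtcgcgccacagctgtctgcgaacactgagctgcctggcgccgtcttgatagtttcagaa
Cdx2, chr5:147307200-147307499, minus strand: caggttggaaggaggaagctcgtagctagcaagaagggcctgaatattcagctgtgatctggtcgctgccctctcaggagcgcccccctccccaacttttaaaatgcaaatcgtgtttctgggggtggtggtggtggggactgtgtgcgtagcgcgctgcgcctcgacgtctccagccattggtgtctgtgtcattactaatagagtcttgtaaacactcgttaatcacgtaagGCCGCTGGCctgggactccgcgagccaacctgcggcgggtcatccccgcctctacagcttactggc
Gata2, chr6:88198414-88198713, plus strand: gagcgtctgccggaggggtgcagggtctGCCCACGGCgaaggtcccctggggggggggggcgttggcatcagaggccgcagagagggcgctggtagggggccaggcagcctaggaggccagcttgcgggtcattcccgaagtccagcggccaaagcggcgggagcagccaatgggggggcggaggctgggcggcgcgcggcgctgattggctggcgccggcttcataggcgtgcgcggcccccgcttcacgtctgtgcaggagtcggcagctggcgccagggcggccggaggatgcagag
The Gata3 window held 3 matches close together, and the Cdx2 and Gata2 windows held 1 each. GCCNNNGGC was present in 3 of the 10 member windows and in 16.6% of all 32851 windows. The TEAD motif GGAATG, read on both strands, was present in windows of Elf5 and Gata2 and in 14.7% of all windows. These matches describe the letters in these windows and nothing of binding.

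Each deposited table holds, per gene, the authors' mean of normalised read counts, a log2 fold change with its standard error (SE), and the Wald test's p and adjusted p, with no value per sample. Which genotype a positive fold change stands for is not given in the sources used here. The sides of each comparison are therefore called positive and negative, and it is not known whether the positive side is the same genotype in both tables. The authors' means are sums of whole reads, each divided by its library's size factor, so the reads behind each member could be recovered for 6 blastocyst columns, 3 per side, and for 4 ES cell columns, 2 per side, although the labels list 6 ES cell samples. The columns are numbered only to tell them apart and were not assigned to samples or genotypes. Size factors ran from 0.695 to 1.62 in blastocyst columns and from 0.759 to 1.25 in ES cell columns. The authors' means summed to 4608914 over blastocyst genes and to 1513923 over ES cell genes. Most recovered blastocyst counts were even numbers (94.5% of the counts above 0 in genes with a mean under 4), and no molecular identifiers are named in the labels, so counts give counting error only and single reads are not independent molecules.

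The targeted gene did not separate the blastocyst sides. Blastocyst columns held 26, 8 and 0 reads of Dis3l on the positive side, against 10, 4 and 8 on the other; in the authors' deposited table the gene has a log2 fold change of 0.28 (SE 1.91, p = 0.882). In the ES cell columns Dis3l had 14 and 8 reads on the positive side against 39 and 39 on the other, and the authors' deposited table gives -0.88 (SE 0.33, p = 0.00778, adjusted p = 0.445). The log2 ratio of the mean normalised reads in these ES cell columns was -1.78. Sides lay apart for Dis3l, as for 40.8% of the 9855 tested ES cell genes with recovered reads. ES cell columns were put on sides by the deposited statistic itself, so this separation is no independent check. Reads alone do not tell which part of the gene they come from, so neither set of values checks the labels.

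In blastocysts the trophectoderm factors were abundant, and none of the 10 changed at an adjusted p under 0.05. Cdx2, Gata3 and Eomes ranked above the 97th percentile of expressed genes per transcript length, and Hand1 was almost absent. By the authors' Wald test in DESeq2, 0 of 10 members passed, against 0.0986% of the 15209 genes tested. At an unadjusted p under 0.05, Gata3 alone passed, against 6.21% of genes tested (2.68% on the positive side, where Gata3 lies, and 3.53% on the negative side, where no member passed). The authors' deposited table gives positive log2 fold changes for 7 members and negative ones for 3, while 48.3% of all tested genes are positive. The median log2 fold change of the 10 members is 0.46, and it is 0.51 over the 9 members other than Hand1, beside -0.04 over all genes tested. In bulk samples such as whole embryos, fewer cells of a type and less RNA per cell cannot be told apart.

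Levels per length, as normalised reads per kb of the longest transcript, put the members in the order Cdx2, Gata3, Eomes, Gata2, Tfap2a, Elf5, Tfap2c, Tead4, Ets2 and Hand1. Cdx2 averaged 825 normalised reads per kb and lay between 611 and 992 in single columns. Gata3 averaged 645 and spanned 461 to 840, so its range overlapped that of Cdx2. Eomes averaged 372 (247 to 551), and its highest column lay within the range of Gata3. Gata2 at 184, Tfap2a at 156, Elf5 at 154, Tfap2c at 129 and Tead4 at 109 normalised reads per kb had ranges that all overlapped, and their order is not resolved. The columns of Gata2 (132 to 230) lay below every column of Eomes. Ets2 averaged 64.9 and, leaving Hand1 aside, had the widest relative range, 11.4 to 109, which reached into that of Tead4 (63.2 to 191). Hand1 was at 1.30, with no column above 7.80, so it stood below every column of each other member. Among expressed blastocyst genes the percentile of the level per kb was 99.08 for Cdx2, 98.78 for Gata3, 97.44 for Eomes, 88.8 for Tead4, 81.02 for Ets2 and 16.79 for Hand1.

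**Figure D1:**
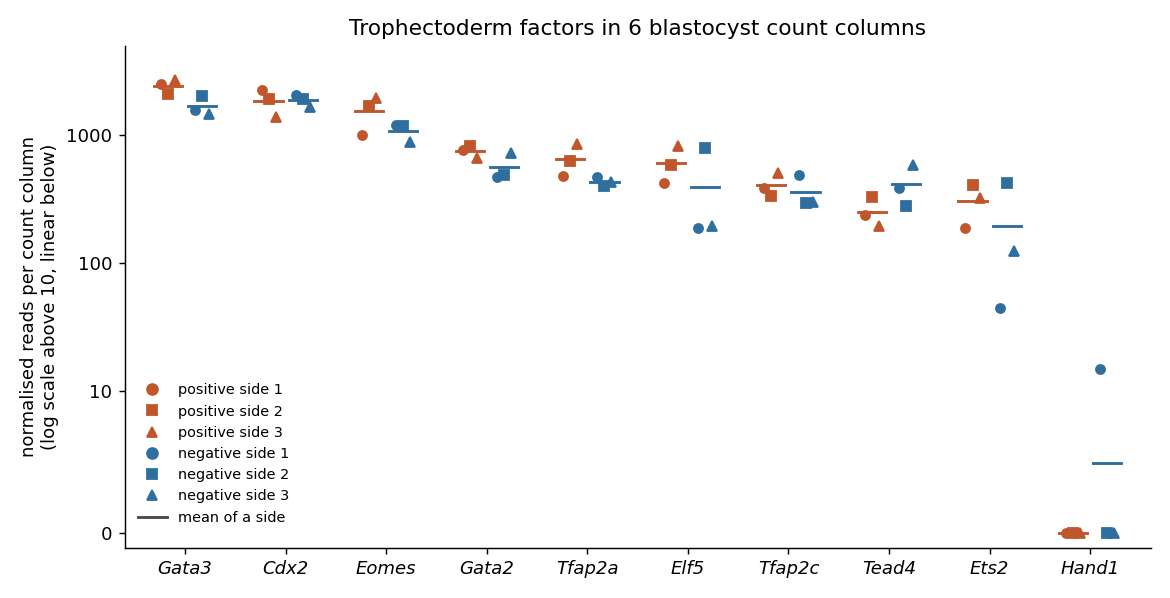
Normalised reads of the trophectoderm factors in each of the 6 recovered blastocyst columns, by side of the comparison (reads divided by the size factor, log scale above 10 and linear below); bars mark the mean of a side. Of the 10 members, 2 (Gata3 and Tfap2a) have sides that do not overlap, with the positive side higher in both, beside 9.88% of 81 other recovered genes, which are Dis3l and the genes of the other lineage and pathway lists and not a sample of all genes.

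Tead4 (chr6:128224288-128300823, GRCm38 as in the deposited table) encodes the DNA-binding partner of YAP that starts the trophectoderm programme. The positive side held 237, 331 and 194 normalised reads of Tead4, against 391, 279 and 587 on the negative side. The highest and the lowest column were on opposite sides, but the sides overlapped through the negative-side column at 279. The authors' deposited table gives the most negative log2 fold change among the well-expressed members, -0.72 (SE 0.41, 95% interval -1.53 to 0.09, p = 0.0820, adjusted p = 0.811). Tead1, another TEAD family member, had 718, 861 and 599 normalised reads against 351, 656 and 124, and the authors' deposited table gives 0.94 (SE 0.48, p = 0.0483, adjusted p = 0.794), the opposite sign to Tead4.

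Cdx2 (chr5:147300805-147307270) encodes the homeodomain factor that maintains the trophectoderm and represses Pou5f1. It had the closest match between sides of the 10 members: 2243, 1924 and 1382 normalised reads on the positive side, against 2067, 1914 and 1666 on the negative side. The negative-side columns all lay inside the range of the positive side. The authors' deposited table gives a log2 fold change of -0.03 (SE 0.27, 95% interval -0.56 to 0.51, adjusted p = 0.997), an interval that spans both directions.

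Gata3 (chr2:9857078-9890034) encodes a zinc finger factor turned on beside Cdx2 by TEAD4. It was one of 2 members whose sides lay apart, with 2516, 2112 and 2699 normalised reads on the positive side, against 1591, 2034 and 1482 on the negative side. The nearest columns, at 2112 and 2034, differed little. The authors' deposited table gives 0.52 (SE 0.26, 95% interval 0.02 to 1.02, p = 0.0419), and the adjusted p is 0.769. Leaving out any 1 column kept the log2 ratio of the mean normalised reads between 0.43 and 0.67.

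The AP-2 factors, which act in outer cells on epithelial and trophoblast genes, gave unequal values. Tfap2a (chr13:40715675-40733823) had 478, 629 and 859 normalised reads on the positive side, against 471, 404 and 432 on the negative side. Its sides lay apart, but only by the gap between 478 and 471, and the spread was mostly on the positive side. The authors' deposited table gives 0.59 (SE 0.34, 95% interval -0.07 to 1.25, p = 0.0793, adjusted p = 0.811). Tfap2c (chr2:172549593-172558622), the AP-2 gene that trophoblast stem cells need, had 387, 335 and 507 against 494, 297 and 299 normalised reads. The highest column of each side was close to that of the other, and the log2 fold change in the authors' deposited table is 0.17 (SE 0.38, 95% interval -0.57 to 0.91, adjusted p = 0.976).

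The factors that sustain trophoblast stem cells, Eomes, Elf5 and Ets2, varied more between columns of 1 side than between sides. Eomes (chr9:118478212-118486132), a T-box factor needed for trophoblast to grow beyond the blastocyst, had 1007, 1701 and 1961 normalised reads on the positive side, against 1202, 1191 and 880 on the negative side. A positive-side column was the second lowest of the 6, so the sides overlapped. The authors' deposited table gives 0.51 (SE 0.31, 95% interval -0.11 to 1.13, p = 0.105).

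Elf5 (chr2:103411688-103450989), an ETS family factor whose promoter methylation separates trophoblast from embryonic lineages, had 425, 583 and 827 normalised reads on the positive side. Its negative-side columns held 189, 790 and 196, so 1 negative-side column was close to the highest of all while the others were the lowest. The authors' deposited table gives 0.64 (SE 0.52, 95% interval -0.37 to 1.65, p = 0.213). Ets2 (chr16:95702075-95721051), an ETS factor needed for trophoblast growth, had 190, 408 and 325 normalised reads on the positive side, against 44.5, 424 and 124 on the negative side. Its highest column was 9.51 times its lowest, and both were negative-side columns. The authors' deposited table gives 0.64 for Ets2 as well (SE 0.64, 95% interval -0.62 to 1.90, p = 0.319). The same negative-side column was high for both genes, and without it the log2 ratio of mean normalised reads was 1.67 for Elf5 and 1.87 for Ets2. Without the first negative-side column the ratio was 0.31 for Elf5 and 0.17 for Ets2, so single columns set its size. The column that was high for both genes also had the highest primitive endoderm sum. Normalised reads of the 10 of 13 primitive endoderm markers with recovered reads summed to 6134, 5909 and 4498 on the positive side, and the negative-side columns held 3317, 9274 and 3925, in the same column order. All 13 of these markers had a mean above 0, and that column held the highest value of 5 of the 10. Cubn, Col4a1 and Sparc, at 2700, 2413 and 2089 normalised reads, made up most of its sum. Gata4 and Pdgfra were also highest there, while Gata6, Sox17, Sox7, Foxa2 and Hnf4a were not. The part of primitive endoderm in the Elf5 and Ets2 values was not tested.

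Of the factors of later trophoblast, Gata2 was well expressed and Hand1 was not. Gata2 (chr6:88193891-88207030), which acts with Gata3 on placental genes, had 765, 822 and 660 normalised reads on the positive side, against 470.0, 493 and 734 on the negative side. The negative-side column at 734 lay among the positive-side values. The authors' deposited table gives 0.41 (SE 0.32, 95% interval -0.21 to 1.03, p = 0.195). Hand1 (chr11:57828705-57832818), a basic helix-loop-helix factor of giant cells, had 24 reads in 1 negative-side column and 0 in the other 5 columns. If reads were independent, a count of 0 would allow up to 3 reads in a column at 95% confidence. As most low counts were even, the true limit may be higher. The log2 fold change of -4.85 (SE 3.93, p = 0.216 by the authors' Wald test) rests on the single column with 24 reads and is no bound. Differentiated trophoblast markers were likewise scarce: Plac1 was the only one of 12 with a mean above 0, and Prl3d1, Prl2c2, Tpbpa and Ctsq, which mark giant cells, spongiotrophoblast and labyrinth, were at 0 in the authors' deposited table. The log2 fold change of Plac1 there is 0.21.

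**Figure D2:**
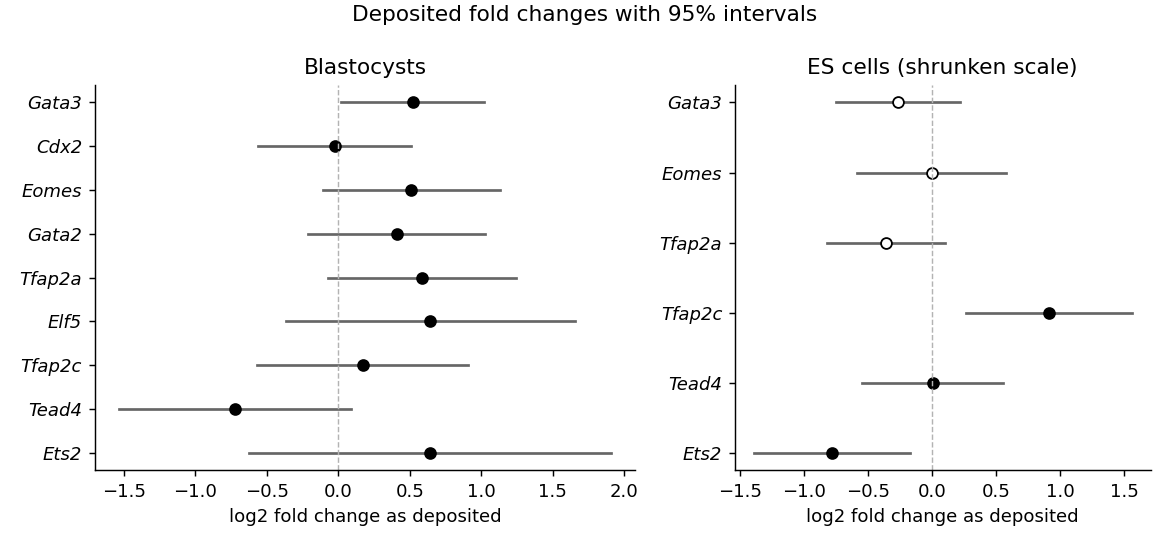
Log2 fold change of each trophectoderm factor in the authors' deposited tables, with 95% intervals from the SE, for blastocysts and ES cells; Hand1 is left out and open circles have no adjusted p. In blastocysts only the Gata3 interval excludes 0, and in ES cells those of Tfap2c and Ets2 do, on opposite sides.

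Summed levels of lineage genes differed between the single-embryo columns. Summed over the 10 members, normalised reads came to 8248, 8845 and 9415 per positive-side column, against 6934, 7824 and 6399 per negative-side column. The member sums did not overlap, and Cdx2, Gata3 and Eomes made up most of each. This was not particular to the members. Sums of the 16 recovered of 20 other trophoblast regulators did not overlap either (9995, 10313 and 12868 against 8529, 9658 and 7971). Sums of the remaining lists did overlap. Among single genes, sides lay apart for 9.88% of 81 other recovered genes. The third positive-side column held the highest value of 5 members (Gata3, Eomes, Elf5, Tfap2a and Tfap2c) and the lowest of Cdx2 and Tead4. That column also held the lowest value of 8 of 13 inner cell mass factors and the highest of 8 of 13 trophectoderm epithelium markers whose reads were recovered. The epithelium list holds 18 markers. Krt8 and Krt18, with means of 5505 and 7678, lay above the highest mean searched, 2700, and are in neither this count nor the epithelium sums. Both have negative log2 fold changes in the authors' deposited table (-0.87 and -0.63), while 11 of the 18 markers are positive. Summed over the 13 inner cell mass factors, normalised reads were 5454, 4704 and 3354 on the positive side, against 5452, 5519 and 4641 on the negative side. On the positive side the inner cell mass sum was lower where the member sum was higher, but on the negative side the column with the highest member sum also had the highest inner cell mass sum. The 13 recovered trophectoderm epithelium markers summed to between 10304 and 14433, and the negative-side column with the lowest member sum had the highest epithelium sum of its side, 11903. The part of the inner cell mass genes' level in the member values was not tested.

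The other lists of trophectoderm biology were set beside the members, each with no gene at an adjusted p under 0.05 in blastocysts. Of 23 genes of the Hippo pathway, which controls YAP and TEAD4, and of Notch signalling, which acts beside them on Cdx2, 19 had positive log2 fold changes in the authors' deposited table with a median of 0.19, and only Tead1 passed an unadjusted p of 0.05. Of 20 other trophoblast regulators, 15 were tested, 10 were positive and the median was 0.11. Klf5, a Krüppel-like factor needed for the trophectoderm, was the 1 regulator that passed the unadjusted threshold. It had 3478, 2875 and 3296 normalised reads against 1774, 2778 and 1876, sides that lay apart as those of Gata3 did, and the authors' deposited table gives 0.59 (SE 0.27, p = 0.0274).

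Of 18 trophectoderm epithelium markers, 1 was higher and 2 were lower on the positive side at an unadjusted p under 0.05. Over all genes tested, 2.68% were higher and 3.53% lower at that threshold. The list's median in the authors' deposited table is 0.09. Krt7, a keratin of simple epithelia, had 177, 560.2 and 946 normalised reads against 64.3, 408 and 199 (log2 fold change 1.33, p = 0.0306 in the authors' deposited table). Krt8 and Krt18, the main keratin pair of the trophectoderm, had log2 fold changes of -0.87 (p = 0.0146) and -0.63 (p = 0.0289) in the authors' deposited table. The keratins therefore did not share a sign with one another, nor Krt8 and Krt18 with Gata3.

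Among the 13 inner cell mass factors, 8 had negative log2 fold changes, with a median of -0.31 in the authors' deposited table. The unadjusted threshold was passed by 2 of the 13, both negative, beside 6.21% of all genes tested (3.53% negative). Neither passed an adjusted p of 0.05. Pou5f1, which encodes Oct4, had 248, 131 and 99.4 normalised reads on the positive side, against 367, 227 and 515 on the negative side (log2 fold change -1.21, p = 0.0124 in the authors' deposited table). Nanog, a factor of the naive epiblast, had 197, 65.0 and 9.14 against 518, 185 and 331 (-1.93, p = 0.00863 in the authors' deposited table). Of 12 tested primitive endoderm markers, Sox7 (3.27, p = 0.00226) and Hnf4a (-3.45, p = 0.0330) passed the unadjusted threshold in opposite directions in the authors' deposited table, and the list's median is 0.04. Fibroblast markers, of which 8 of 12 were at 0, summed to between 16.1 and 184 normalised reads per blastocyst column.

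In ES cells 4 of the 10 factors were not listed, 4 lay below the median level of listed genes, and Tead4 and Ets2 lay above it; none of the 3 members with an adjusted p passed its threshold. Cdx2, Gata2, Elf5 and Hand1 are not among the genes the ES cell table lists, whose lowest mean is 2.08. Eomes, Gata3 and Tfap2a are listed with means of 8.24, 4.05 and 4.01, below the lowest mean that has an adjusted p (9.18). Tead4, Ets2 and Tfap2c have an adjusted p. By the authors' Wald test in DESeq2, 0 of these 3 passed an adjusted p of 0.05, against 0.261% of the 10739 genes tested. At an unadjusted p under 0.05, 2 of 3 passed, Tfap2c on the positive side and Ets2 on the negative side, against 5.62% of genes tested (2.21% on the positive and 3.42% on the negative side). The median log2 fold change of the 3 is 0.01, beside -0.00 over all tested genes in the authors' deposited table. The ES cell fold changes carry SEs of at most 0.33, against up to 4.08 in the blastocyst table, and appear shrunken towards 0, so sizes are not comparable between the tables.

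Tead4 was the member with the highest level in ES cells. It had 136 and 80 reads on the positive side, against 91 and 131 on the negative side, which is 109, 105, 86.5 and 127 normalised reads. The negative side held both the highest and the lowest column, and the authors' deposited table gives a log2 fold change of 0.01 (SE 0.28, 95% interval -0.55 to 0.56, p = 0.986). Per kb its level was 34.7 normalised reads, at percentile 75.49 of the genes listed, and single columns lay between 28.1 and 41.2. Ets2 followed at 20.9 normalised reads per kb (10.5 to 39.5), with a range that overlapped that of Tead4, then Tfap2c at 6.47 (2.27 to 12.8). Eomes at 2.31, Gata3 at 1.26 and Tfap2a at 1.15 had overlapping ranges, and their order is not resolved.

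Tfap2c had 31 and 29 reads on the positive side, against 8 and 7 on the negative side, or 24.7 and 38.2 against 7.61 and 6.76 normalised reads. The sides lay apart, as they did for 40.8% of 9855 tested ES cell genes with recovered reads. The authors' deposited table gives 0.91 (SE 0.33, 95% interval 0.26 to 1.56, p = 0.00584, adjusted p = 0.387). The log2 ratio of the mean normalised reads themselves was 2.13, and it stayed between 1.78 and 2.41 with any 1 column left out. Outside trophoblast, Tfap2c is known from primordial germ cells and pluripotent cells.

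Ets2 had 74 and 31 reads on the positive side, against 75 and 159 on the negative side, or 59.1 and 40.8 against 71.3 and 154 normalised reads. Its sides also lay apart, though 3 of the 4 columns lay between 40.8 and 71.3 and 1 negative-side column stood above them. The authors' deposited table gives -0.78 (SE 0.31, 95% interval -1.39 to -0.17, p = 0.0119, adjusted p = 0.534). The log2 ratio of mean normalised reads was -1.17, and it was -0.51 without that column and -1.62 without the other negative-side column. Ets2 is widely expressed, fibroblasts included. The same column held the highest value of 11 of 12 fibroblast feeder markers: their summed normalised reads were 872 and 739 on the positive side, against 869 and 2638 on the negative side, all 12 being listed. It also held the highest value of 4 of the 6 members, among them Gata3 and Tfap2a at only 8 and 12 reads. This was not particular to the members. The column was highest for 9 of 19 Hippo and Notch genes and 5 of 14 other trophoblast regulators. It was also highest for 3 of 15 epithelium markers, 3 of 6 inner cell mass factors and 4 of 10 primitive endoderm markers. The part of feeder cells in the Ets2 value was not tested.

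Eomes, Gata3 and Tfap2a were close to the floor of the ES cell table. Eomes had 6 and 9 reads against 8 and 9, with a log2 fold change of -0.00 (SE 0.30, p = 0.996) in the authors' deposited table. Gata3 had 3 and 1 reads against 5 and 8 (-0.26, SE 0.25, p = 0.286), and Tfap2a had 2 and 0 against 3 and 12 (-0.36, SE 0.23, p = 0.129), again in the authors' deposited table. In Gata3 and Tfap2a both negative-side columns were above both positive-side ones, by a few reads. At such counts a change in these genes was not detectable, and no fold is read from the reads.

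**Figure D3:**
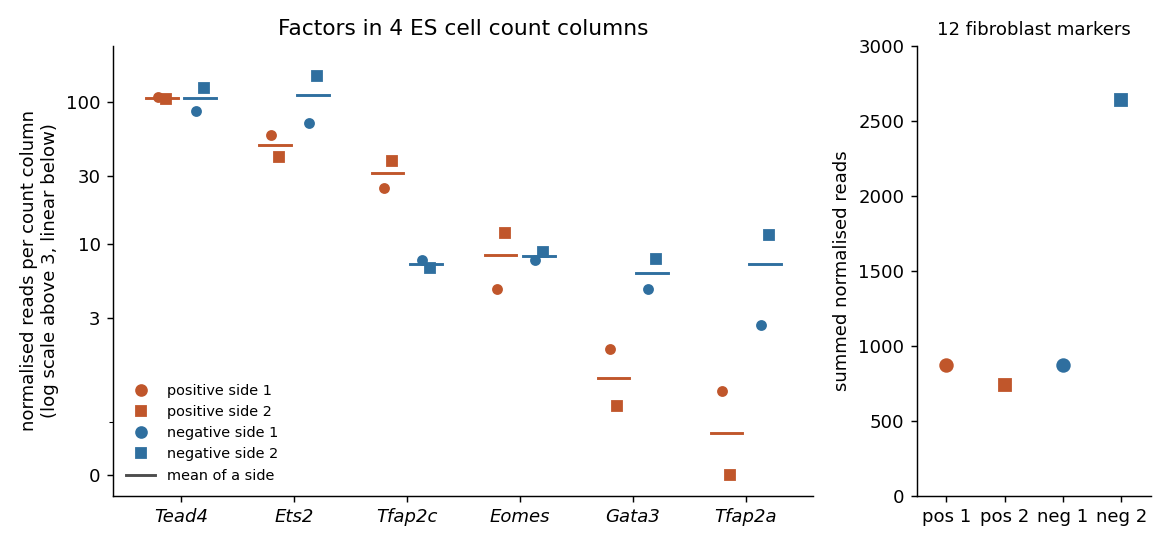
Normalised reads of the 6 trophectoderm factors listed in the ES cell table, in each of the 4 recovered columns, by side of the comparison. Tfap2c is higher in both positive-side columns, and Ets2 is highest in 1 negative-side column.

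The rank of the members among all genes differed widely between the materials, which were sequenced from unlike libraries, so the levels are described and not tested. Eomes lay at percentile 97.44 of expressed blastocyst genes and 13.96 of listed ES cell genes, and Gata3 at 98.78 and 6.67. The percentile of Tfap2a was 92.75 in blastocysts and 5.66 in ES cells, and that of Tfap2c was 90.92 and 31.29. Ets2, at 81.02 and 61.73, and Tead4, at 88.8 and 75.49, had the smallest gaps of the 6. These percentiles are over unlike sets of genes. Among the 11472 genes common to both materials, Ets2 lay at 74.63 and 58.45 and Tead4 at 85.01 and 73.4. The keratins Krt8 (99.80 and 78.61) and Krt18 (99.88 and 76.72), markers of the trophectoderm epithelium, were high in blastocysts and lower in ES cells. Pou5f1 (94.31 and 99.61) and Nanog (87.53 and 98.05) were higher in ES cells. These are a few chosen markers, and most genes of their lists were not ranked in this way. Sox17, a primitive endoderm factor, was at 70.93 in blastocysts and is not listed for ES cells, while Col1a1, a fibroblast collagen, was at 0 in blastocysts and at percentile 28.68 in ES cells.

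**Figure D4:**
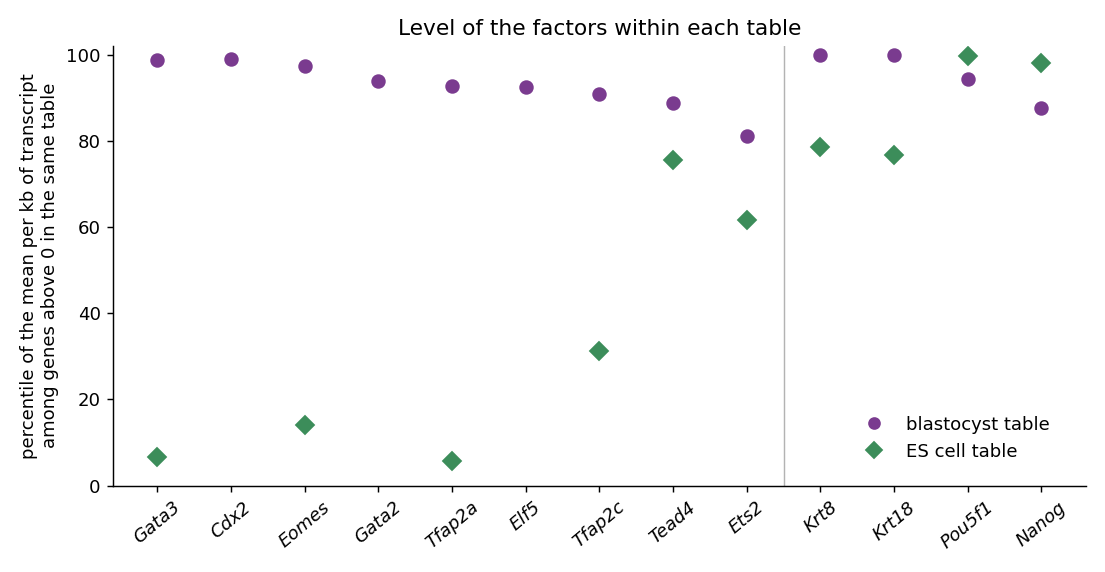
Percentile of each listed trophectoderm factor's level per kb in blastocysts and in ES cells, beside the trophectoderm keratins Krt8 and Krt18 and the inner cell mass genes Pou5f1 and Nanog. Each material is ranked over its own genes. On that ranking all members but Hand1, which is left out, lie above the 80th percentile in blastocysts, and only Tead4 and Ets2 lie above the 60th in ES cells. Among the 11472 genes common to both, Ets2 lies at 74.63 and 58.45.

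The wider lists in ES cells held no gene at an adjusted p under 0.05. For the 23 Hippo and Notch genes the median was -0.06 (log2) in the authors' deposited table, and none passed an unadjusted p of 0.05 by the authors' Wald test in DESeq2. Of 12 tested other trophoblast regulators 9 were negative (median -0.17), and Bmpr1a, a BMP receptor, passed the unadjusted threshold at -0.60 (p = 0.0246 in the authors' deposited table). The 13 tested trophectoderm epithelium markers had a median of 0.04, and Aqp3, a water channel, was at -0.80 (p = 0.0150 in the authors' deposited table). Of the 12 differentiated trophoblast markers 2 were listed and 1 was tested, with a log2 fold change of 0.01 in the authors' deposited table. Of the inner cell mass factors 11 of 13 were negative (median -0.19), and Tbx3 was at -0.69 (p = 0.00939 in the authors' deposited table). Of 6 tested primitive endoderm markers 4 were positive (median 0.09), with Col4a1 at -0.77 (p = 0.00734 in the authors' deposited table). Fibroblast feeder markers were negative in 10 of 11 (median -0.46). Of these 11, 4 passed the unadjusted threshold, all negative, beside 5.62% of genes tested (3.42% negative). Among them were the matrix genes Col1a1 (-0.92, p = 0.00560), Col5a1 (-0.72, p = 0.00886) and Lum (-0.70, p = 0.0322) in the authors' deposited table. A single negative-side column held the highest value of 11 of 12 feeder markers. The marker sum of the other negative-side column, 869, lay within the positive-side sums of 872 and 739.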

How the data were processed

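Blastocyst RNA was extracted with a column kit and ES cell RNA with TRI Reagent, per the labels' protocols. The submitters' processing notes name STAR 2.4.0b, SAMtools, bedtools, featureCounts, Subread 2.0.1, DESeq2 1.34.0 and GRCm38, without a role or an order. As deposited by the authors, each table gives a signal (normalised counts averaged over libraries), a log2 fold change with its log2 SE, a score that is the Wald statistic, and a p-value with its adjusted p-value, all read from the header names. The tables have 0 columns of per-sample values, so the authors' own test was used as planned for that case, with an adjusted p under 0.05 as the threshold and 95% intervals from the SE, taken as normal.

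From these, whole reads per count column were recovered. Blastocyst columns were put on a side by the fold change sign of genes with reads in 1 column only. ES cell columns were put on a side by the sign of their correlation with the deposited Wald statistic over recovered genes. The ES cell sides are therefore inferred from the deposited statistic. For ES cells, every split of an authors' mean into whole reads was listed. For blastocysts, only splits whose side sums lay near those implied by the deposited log2 fold change were listed. Splits were then kept that returned that fold change (tolerance 1e-09) when a negative binomial model like the authors' was refitted at the deposited SE. Blastocyst genes were searched up to a mean of 2700, and exactly 1 solution was found among the splits listed for 91 of 91. Splits with side sums further away were not searched, so a single solution over all splits was not shown for blastocysts. Among ES cell genes with a mean of at most 350, exactly 1 solution was found for 12137 of 12137. On simulated data, 12 of 12 blastocyst genes and 200 of 200 ES cell genes were recovered. The simulated blastocyst means were set below those of Cdx2, Gata3, Eomes, Gata2, Tfap2a and Elf5. The simulation therefore does not cover genes at those levels. Levels were divided by the longest transcript in GENCODE M21. Alternatives changed the threshold, the genes adjusted over, the scaling, the length and the columns used. All members are named, with Dis3l, defining markers, and up to 3 genes per other list with the smallest unadjusted p under 0.05. The members and the 7 other lists were chosen with earlier results of these data known. Calculations used Python 3.11.15 with numpy 2.4.6, pandas 2.3.3 and scipy 1.17.1.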

Additional observations from a re-analysis of the deposited data

How the results depend on the processing

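The count of members with an adjusted p under 0.05 was 0 in both tables under each of the 4 alternatives run. Over all genes, the 15 blastocyst calls became 9 at an adjusted p under 0.01 and 8 with adjustment over genes with a mean of at least 50, and the 28 ES cell calls became 14 with adjustment over autosomal genes and 39 over genes with a mean of at least 50; the causes were not tested beyond the alternatives' own construction. Each count column was also left out in turn (leave-one-out). The median log2 ratio over the 9 members other than Hand1 then ran from 0.31 to 0.54 in blastocysts. Over the 3 ES cell members with an adjusted p it ran from -0.24 to 0.31, and that median is the Tead4 value. Signs turned for Cdx2 (-0.19 to 0.15) and Tfap2c (-0.01 to 0.46) in blastocysts and for Tead4 (-0.24 to 0.31) and Eomes (-0.77 to 0.54) in ES cells. Relative to the median of all genes tested, Cdx2 moved from -0.03 to 0.01 in blastocysts. Against a level per union of exons, the median percentile of members moved from 92.7 to 91.9 in blastocysts and from 22.6 to 24.0 in ES cells. Depth limits Eomes, Gata3 and Tfap2a in ES cells and Hand1 in blastocysts. No paired analysis was possible because the tables hold no values per sample and their columns carry no replicate number.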

Other observations

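Arid3a, a factor linked to trophoblast differentiation, had normalised reads of 8.57, 114 and 254 per positive-side blastocyst column, against 12.4, 118 and 11.5 per negative-side column. The negative-side column in which Ets2 and Elf5 were high was also the highest negative-side column for Arid3a and for the summed primitive endoderm markers; the part of the latter was not tested. The gene was chosen after its values were seen, and no test was made.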
